A study of Mus musculus with 135 samples.

Results

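Bulk RNA of the cerebral cortex was compared between SS + RSD + minocycline mice (n = 14) and SS + RSD mice (n = 6), which make up 20 of the 68 cortex libraries with a group, in a series of 135 samples. The members were chosen by their labels alone: cortex, disease state SS, stress exposure RSD, with or without treatment. All were male Townes mice, a knock-in line in which human globin genes replace the mouse genes, and SS mice carry the sickle allele. RSD is repeated social defeat, in which an aggressive intruder male is placed in an established home cage every evening over successive days. Minocycline was given in the drinking water, beginning before the first defeat and ending with the last. The mice had gone through behavioral tests, including fear conditioning, before the brain was taken. SS control mice (n = 8) had neither defeat nor drug, and SS + minocycline mice (n = 4) had the drug without defeat.

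The groups compared did not share a mouse-number series. Going by the mouse numbers in the labels, all SS + RSD mice belong to a first number series (A, as do 2 SS control mice), whereas 12 SS + RSD + minocycline mice belong to series B (as do 6 SS control mice) and 2 to series C. The treatment and the series therefore cannot be told apart in this comparison, and the main results are given with the difference between series B and A among the untreated SS control mice, called the control-series difference. The number series are a grouping made here from the mouse numbers, and the labels state no series, date or batch. In the SS cortex libraries, series A covers numbers 5349 to 5400 and 9615 to 9621. Series B covers 5785 to 5883 and 9810 to 9910, and series C 7076 to 7121. Of the SS + minocycline mice, 9888 and 9889 are of series B and 7108 and 7121 of series C.

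Minocycline is a tetracycline antibiotic that enters the brain and is widely used in rodents to dampen microglial activation. Repeated social defeat is known to activate microglia, to recruit myeloid cells to brain vessels and to change the expression of neurotrophins. Brain-derived neurotrophic factor, encoded by Bdnf, is released by active cortical excitatory neurons, acts through the receptor TrkB and is transcribed, with the immediate early genes, when calcium enters a neuron. The comparison addressed whether expression differed when defeated sickle mice had received minocycline.

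The libraries held 20761192 to 70016768 reads on genes in SS + RSD mice and 20037825 to 107713193 in SS + RSD + minocycline mice. The share of all reads that fell outside annotated genes, a measure of intronic and intergenic RNA, was 3.69% to 5.54% in 5 SS + RSD mice and 8.39% in mouse 5354. Among SS + RSD + minocycline mice it was 4.27% to 6.09% in 5 mice (7076, 5801, 9895, 5875 and 9890) and 9.66% to 12.1% in the other 9. The group means of 8.62% and 5.01% differed by 3.61 percentage points (exact two-sided permutation test, p = 0.0102). It was 4.63% and 5.24% in the control mice of series A and 8.63% to 11.04% in those of series B. Results are therefore also given for the 5 low-share and the 9 high-share SS + RSD + minocycline mice separately, each against the 6 SS + RSD mice. This division at 8% was made after the libraries had been seen. The cortical neuron markers Slc17a7, Neurod2 and Tbr1 summed to 1105 to 1662 CPM (read counts scaled to library size with TMM factors) in SS + RSD and 818 to 1506 in SS + RSD + minocycline libraries. Striatal markers summed to 146 to 1112 CPM (highest in mouse 9621) and 93.8 to 756 CPM, choroid plexus markers to 8.32 to 21.8 and 4.004 to 36.6 CPM, and none of these markers was at 0 in every library of a group. Mice 9621, 9813 and 9890 held 560.3 to 1112 CPM of the striatal markers and the other 29 SS libraries 79.4 to 435 CPM. Mouse 9890 is also 1 of the 5 low-share mice. Results are given without these 3 libraries as well, a choice made after the libraries had been seen. The library labelled 7078, an SS + RSD + minocycline mouse, held 6.33 CPM of Alas2, an enzyme of heme synthesis in immature red cells, where the other 13 held 54.4 to 130.4. Its label as an SS mouse was not checked. Whether a wrong label or less blood left in the vessels lies behind this value was not tested. Nothing in the labels says that the mice of a group came from separate litters or cages, and p-values measure the spread between these mice.

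Of 19906 genes tested, 1762 (8.85%) differed between SS + RSD + minocycline and SS + RSD mice at an adjusted p under 0.05 (edgeR quasi-likelihood test), 1270 higher (6.38%) and 492 lower (2.47%). The median log2 fold change was 0.86 over the higher genes, -0.36 over the lower genes and -0.05 over all genes. The control-series difference had the same sign in 1257 of the 1270 higher genes (median 0.86) and in 457 of the 492 lower genes (median -0.28). Over all genes tested in the first comparison, it was above 0 in 44.5% and below 0 in 55.4%. The control-series comparison shares no library with the first. It called 0 of 20996 genes itself (0.0%, 6 against 2 mice, with 4295 at an unadjusted p under 0.05 and 1060 called by DESeq2). With number series as a term in the model, 0 genes were called (442 at an unadjusted p under 0.05, and 0 by DESeq2), and the median log2 fold change of the 1270 higher genes was -0.05. In that model the difference between series A and B comes only from the 2 and 6 SS control mice. The model is therefore no check apart from the control-series difference.

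**Figure D1:**
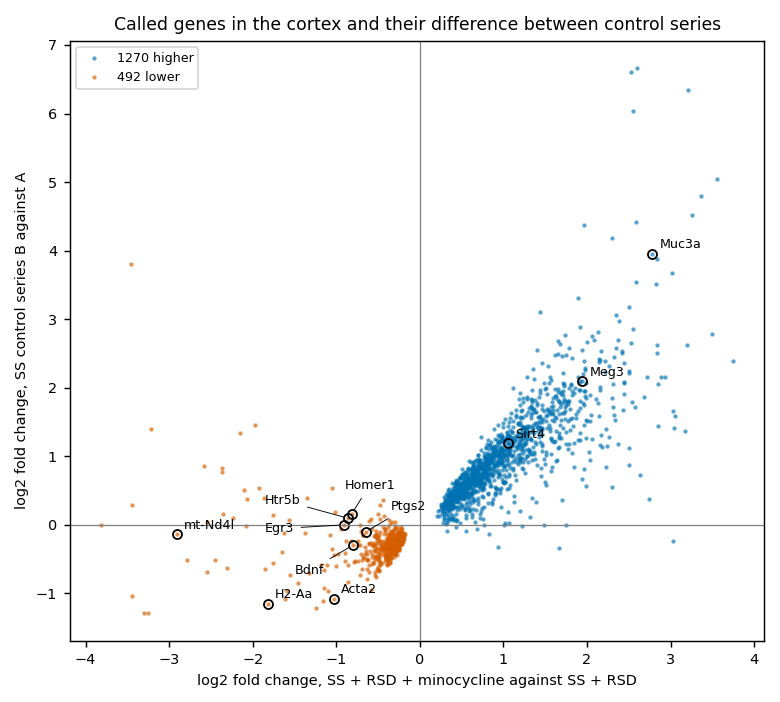
Each point is a gene called in the cortex, with its log2 fold change between SS + RSD + minocycline and SS + RSD mice on the x axis and the control-series difference on the y axis. The 1270 higher genes lie mostly along a rising band, with Meg3 at 1.94 and 2.09, whereas Egr3, Homer1, Htr5b and Ptgs2 lie near 0 on the y axis.

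The calls also moved with the share of reads outside genes. The 9 high-share mice differed from SS + RSD mice in 7314 genes (36.7%), 3088 higher and 4226 lower. The 5 low-share mice differed from the same SS + RSD mice in 0 genes (0.0%, 2143 at an unadjusted p under 0.05 and 180 called by DESeq2), also in 0 without mouse 7076 or without mouse 5354. Within the group, high-share and low-share mice, all given the same defeat and drug, differed in 6347 genes (31.9%). Without mouse 7078 the count was 1440, and without the 3 libraries highest in striatal markers it was 1038. When a single SS + RSD mouse was removed, the models gave 863 to 1444 calls, with 863 without mouse 9615, 869 without mouse 9616 and 1136 without mouse 5354. Bdnf, Entpd1, Akt2, the sirtuins and several sphingolipid genes are described here because the study names them from these same samples, so that their choice is not independent of these data, and no direction is taken from the study. A gene below is described as called in all 6 of these fits where that held, and otherwise the mice whose removal ended the call are named. No gene named here was called in the low-share mice alone, with number series as a term (adjusted p = 1 for each under that term) or with the share of reads outside genes as a term. Under the share term 4 genes in all were called, and Bdnf was at -0.62 (adjusted p = 0.0861).

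Bdnf was lower in SS + RSD + minocycline mice. Bdnf (ENSMUSG00000048482.15, chromosome 2, 109505045 to 109557475) had 32.4 to 41.6 CPM in the 6 SS + RSD mice, with a median of 34.9, and 13.2 to 29.3 CPM in the 14 SS + RSD + minocycline mice, with a median of 19.8. The groups did not overlap. The share of all genes tested that separated the groups as fully, or nearly so, was not counted. The log2 fold change was -0.80 ± 0.13 (standard error), or 0.573 of the SS + RSD level (adjusted p = 0.00332), and Bdnf was called in all 6 fits that left out an SS + RSD mouse and without the 3 libraries highest in striatal markers (-0.77, adjusted p = 0.0127). It was -0.59 ± 0.16 in low-share mice (adjusted p = 0.157), whose 17.9 to 29.3 CPM all lay below the SS + RSD range, and -0.93 in high-share mice (adjusted p = 0.00011). SS control mice had 32.9 and 36.4 CPM in series A and 20.6 to 42.4 CPM in series B, a control-series difference of -0.30 (adjusted p = 0.477), and with number series as a term the value was -0.49 ± 0.27. The 4 SS + minocycline mice had 21.3 to 25.4 CPM. This range lies below that of the SS + RSD mice and within that of SS + RSD + minocycline mice. It also lies within the range of the untreated control mice of series B. These 4 mice are of series B or C, so series and drug cannot be told apart in this comparison either.

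Of 15 tested genes for neurotrophins, their receptors and their processing, 2 fell, none rose and the median log2 fold change was -0.12. For this and the lists below, 2.47% of all genes tested were called lower and 6.38% higher. Besides Bdnf, the gene that fell was Sorcs3, a sorting receptor of the family that binds proneurotrophins, with 50.1 to 75.8 CPM (median 61.1) in SS + RSD and 19.4 to 63.6 CPM (median 41.9) in SS + RSD + minocycline mice. Its log2 fold change was -0.50 ± 0.15 (adjusted p = 0.0372), the groups overlapped, and the call was lost without mice 5400, 9615, 9616, 9621 or 5354, adjusted p = 0.0527 to 0.093, without mouse 7078 (adjusted p = 0.0539) and without the libraries highest in striatal markers (adjusted p = 0.0907). Ntrk2, which encodes TrkB, was not called, at -0.30 ± 0.11 (adjusted p = 0.0721).

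Among 20 immediate early and activity-regulated genes, 4 fell, none rose and the median log2 fold change was -0.37. The 4 were Nptx2, a secreted pentraxin that gathers AMPA receptors at synapses, the transcription factors Egr3 and Fosb, and Homer1, a scaffold of the postsynaptic density whose short form is induced by activity. Each was called in all 6 fits, and without the 3 libraries highest in striatal markers, where the log2 fold changes were -0.999, -0.89, -0.72 and -0.78 (adjusted p = 0.0218, 0.0144, 0.0267 and 0.0407). Nptx2 had 55.3 to 90.6 CPM (median 65.3) in SS + RSD and 22.1 to 55.8 CPM (median 33.1) in SS + RSD + minocycline mice, of which 13 lay below every SS + RSD mouse, with a log2 fold change of -0.98 ± 0.18 (adjusted p = 0.0069). Egr3 had 135 to 240.2 CPM (median 187) against 55.2 to 153 CPM (median 96.4), with 12 of the 14 below the SS + RSD range and a log2 fold change of -0.91 ± 0.17 (adjusted p = 0.0077). Fosb had 13.8 to 23.99 CPM (median 16.97) against 8.08 to 14.96 CPM (median 10.9), at -0.71 ± 0.15 (adjusted p = 0.00986). For these 3 genes 1 or 2 SS + RSD + minocycline mice reached into the SS + RSD range. The share of all genes tested that separated the groups as far was not counted. Homer1 had 149.6 to 252 CPM (median 188) against 70.6 to 194 CPM (median 104), at -0.82 ± 0.20 (adjusted p = 0.015). Ptgs2, the inducible cyclooxygenase, which cortical neurons also express with activity, had 15.8 to 21.8 CPM (median 19.4) against 7.26 to 17.3 CPM (median 12.9), at -0.65 ± 0.16 (adjusted p = 0.0131), and was likewise called in all 6 fits and without the libraries highest in striatal markers (-0.55, adjusted p = 0.0477). Without mice 5391, 9621 and 7076, whose libraries have high shares of unmapped reads, the calls of Homer1 (-0.67, adjusted p = 0.0603) and Ptgs2 (-0.48, adjusted p = 0.0693) were lost.

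The median control-series difference of the 20 immediate early genes was -0.27, and their median log2 fold change with number series as a term was -0.058. The control-series difference was -0.00063 ± 0.31 for Egr3, 0.0019 ± 0.27 for Fosb, 0.16 ± 0.35 for Homer1, -0.10 ± 0.27 for Ptgs2 and -0.43 ± 0.27 for Nptx2, with 2 mice in series A (adjusted p = 0.362 to 1). With number series as a term the log2 fold changes of these 5 genes were -0.91 ± 0.37, -0.72 ± 0.32, -1.01 ± 0.43, -0.51 ± 0.32 and -0.49 ± 0.34 in the same order. The value in low-share mice was -0.91 for Egr3, -0.81 for Fosb, -0.78 for Homer1, -0.70 for Ptgs2 and -0.83 for Nptx2 (adjusted p = 0.116 to 0.272), beside -0.91, -0.66, -0.84, -0.63 and -1.08 in high-share mice. SS + minocycline mice had 74.8 to 109 CPM of Egr3 and 9.44 to 12.1 CPM of Fosb, below the lowest SS + RSD mouse for both genes. These mice are of series B or C, so series and drug cannot be told apart here either. Untreated control mice of series B had 120 to 273 CPM of Egr3 and 10.5 to 31.5 CPM of Fosb. Other immediate early genes did not pass the test. The fold change of Arc, a regulator of AMPA receptor recycling, was -0.22 ± 0.33 (adjusted p = 0.7), that of Fos -0.46 ± 0.30 (adjusted p = 0.327), that of Npas4 0.02 ± 0.28 (adjusted p = 0.969) and that of Nr4a1 0.24 ± 0.22 (adjusted p = 0.511).

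**Figure D2:**
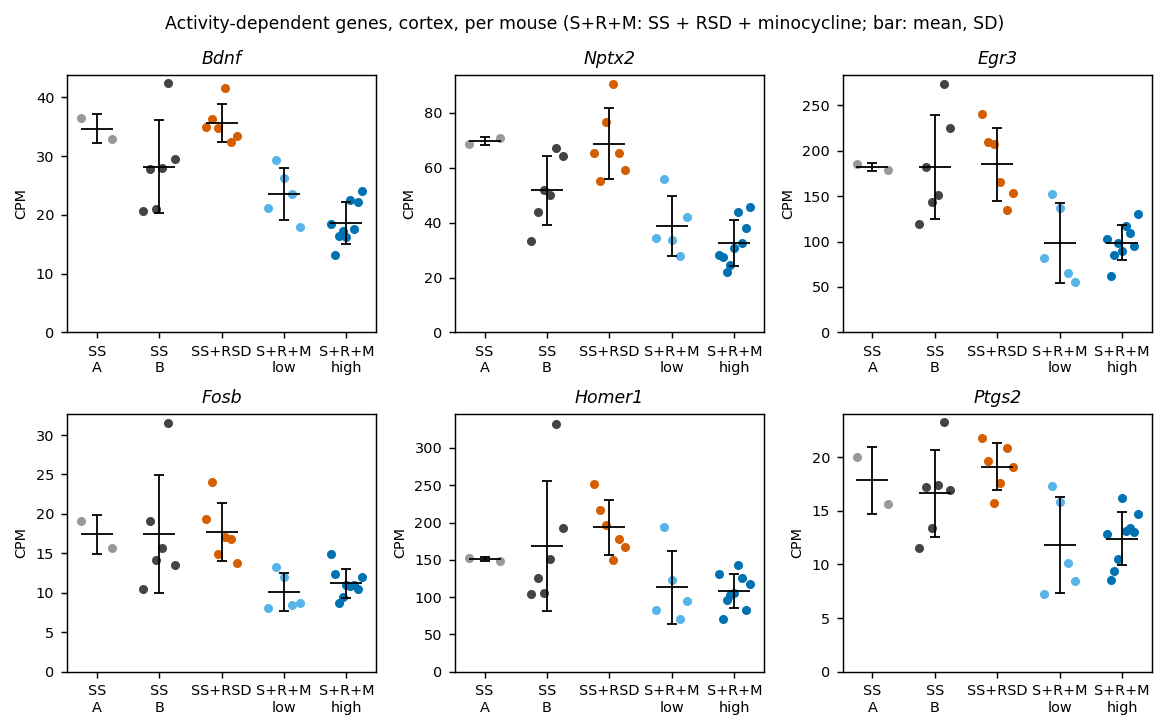
CPM of 6 activity-dependent genes in each cortex library, by group, with black bars for the mean and SD. S+R+M are SS + RSD + minocycline mice, divided into 5 low-share and 9 high-share libraries, and SS A and SS B are control mice of the number series. For Bdnf all 14 S+R+M points lie below the lowest SS + RSD point at 32.4 CPM, whereas the 6 series B control mice spread over 20.6 to 42.4 CPM.

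The promoters of Bdnf and Fosb are shown because neuronal activity, a known inducer of both, acts in part through the cyclic AMP response element. Its full site is TGACGTCA and its core is TGACG, so that a full site also contains the core. In the 250 bases before the start of the canonical transcript (GENCODE M39, GRCm39), neither gene held the full site on either strand, which 1.70% of 21770 protein-coding genes held. The core was found at 2 places in Fosb and at 0 in Bdnf, against at least 1 in 18.03% of those genes. Bdnf has several promoters, and only that of the canonical transcript was read. Capitals mark the core on either strand.
Bdnf, chr2:109523658-109523907, plus strand: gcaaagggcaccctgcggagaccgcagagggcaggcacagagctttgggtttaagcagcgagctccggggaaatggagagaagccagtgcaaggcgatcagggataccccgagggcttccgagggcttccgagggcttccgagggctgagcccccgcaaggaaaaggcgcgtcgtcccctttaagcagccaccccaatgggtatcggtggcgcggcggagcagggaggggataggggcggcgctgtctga
Fosb, chr7:19043977-19044226, minus strand: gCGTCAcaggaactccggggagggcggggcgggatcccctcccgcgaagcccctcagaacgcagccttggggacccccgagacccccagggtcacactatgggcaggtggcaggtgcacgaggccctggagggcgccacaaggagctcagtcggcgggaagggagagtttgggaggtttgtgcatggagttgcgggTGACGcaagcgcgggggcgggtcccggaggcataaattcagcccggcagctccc

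Receptors and scaffolds of glutamate, GABA, serotonin and dopamine synapses gave 1 or 2 calls a list, all of them lower. Over all genes tested, 2.47% were called lower and 8.85% in either direction. Of 34 genes for glutamate receptors and postsynaptic scaffolds 2 fell (Homer1 and Dlg4), of 24 for GABA receptors and interneuron markers 1 fell (Gabbr1), of 12 serotonin receptors 1 fell (Htr5b), and of 9 dopamine genes 1 fell (Maob). None rose, and the list medians were -0.023, -0.13, -0.08 and -0.17. Dlg4, which encodes PSD-95, had a log2 fold change of -0.26 ± 0.073 and a control-series difference of -0.26, and its call was lost without mice 5391, 9615, 9616, 9621 or 5354, adjusted p = 0.053 to 0.159. Gabbr1, a subunit of the GABA-B receptor, had -0.18 ± 0.05, and its call was lost without mice 5391, 9615 or 9616, adjusted p = 0.0946 to 0.152. Htr5b, a serotonin receptor of low expression, had 1.36 to 2.33 CPM (median 1.9995) in SS + RSD and 0.542 to 1.72 CPM (median 0.966) in SS + RSD + minocycline mice, a log2 fold change of -0.86 ± 0.22 (adjusted p = 0.0166, lost without mouse 9616, adjusted p = 0.0619) beside a control-series difference of 0.098. Htr4, Htr6 and Htr7, receptors coupled to stimulation of cyclic AMP, were at 0.28 ± 0.38, -0.0034 ± 0.12 and 0.0098 ± 0.10 (adjusted p = 0.669, 0.988 and 0.96). Maob, a mitochondrial enzyme that breaks down amines, had 29.2 to 37.6 CPM (median 30.4) against 17.4 to 29.6 CPM (median 23.7), at -0.48 ± 0.12 (adjusted p = 0.0139, lost without mouse 9615, adjusted p = 0.0514), with a control-series difference of -0.57.

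Entpd1, which encodes CD39, the ectoenzyme on microglia and vessels that breaks down extracellular ATP, fell. It had 15.6 to 24.8 CPM (median 17.1) in SS + RSD and 8.02 to 18.1 CPM (median 11.8) in SS + RSD + minocycline mice, of which 11 lay below every SS + RSD mouse, with a log2 fold change of -0.53 ± 0.13 (adjusted p = 0.0151, lost without mouse 9621, adjusted p = 0.0502). Its control-series difference was -0.47 (adjusted p = 0.174), and the low-share value was -0.33. It was the only call among 17 purine ectoenzymes and receptors. The share of all genes tested with as many mice below the SS + RSD range was not counted. Adora1, the inhibitory adenosine receptor, was at -0.35 ± 0.13 (adjusted p = 0.0751), and without mouse 9621, whose 189.8 CPM lay far below the other SS + RSD mice at 296 to 318, it was called at -0.45 (adjusted p = 0.0337). Of 10 endocannabinoid genes none was called, and Abhd6, a lipase that degrades 2-arachidonoylglycerol, was at -0.33 ± 0.11 (adjusted p = 0.0515). Of 25 genes of the AKT and PI3K pathway 1 fell, Akt2, a kinase best known from insulin signalling, with 112 to 133 CPM (median 127) against 56.6 to 128 CPM (median 96.6) at -0.41 ± 0.11 (adjusted p = 0.0205), a control-series difference of -0.34, and a call lost without mice 5391, 9615 or 9616, adjusted p = 0.064 to 0.0713. Akt1 was at -0.20 ± 0.073 (adjusted p = 0.0781).

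Of the 7 sirtuins, deacylases that use NAD, 3 rose and 4 did not pass the test, beside 6.38% of all genes tested called higher. Sirt4, a mitochondrial sirtuin, had 7.49 to 13.02 CPM (median 10.4) in SS + RSD and 8.76 to 26.8 CPM (median 24.02) in SS + RSD + minocycline mice, a log2 fold change of 1.06 ± 0.24 (adjusted p = 0.0114), and the nucleolar Sirt7 had 20.9 to 27.8 CPM (median 26.9) against 25.6 to 56.4 CPM (median 46.9), at 0.75 ± 0.15 (adjusted p = 0.0079). Both were called in all 6 fits. Sirt6, a chromatin deacylase, was at 0.42 ± 0.13 (adjusted p = 0.037), and its call was lost without mice 5400, 9615, 9616, 9621 or 5354, adjusted p = 0.0511 to 0.0842. The levels differed with the share of reads outside genes. The 9 high-share mice had 22.1 to 26.8 CPM of Sirt4 and 43.7 to 51.9 CPM of Sirt7, whereas low-share mice had 8.76 to 23.96 and 25.6 to 56.4, in both cases with mouse 7076 highest, and the high-share mice exceeded the low-share mice in Sirt4 by 0.78 (log2, adjusted p = 0.0126) and in Sirt7 by 0.43 (adjusted p = 0.0235). The control-series differences were 1.19, 0.71 and 0.42, and with number series as a term all 3 were below 0, at -0.21, -0.0077 and -0.04. Sirt1, Sirt2, Sirt3 and Sirt5 were at 0.16 ± 0.19, -0.14 ± 0.089, -0.25 ± 0.12 and 0.19 ± 0.069 (adjusted p = 0.611, 0.312, 0.155 and 0.084).

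Of 48 genes of sphingolipid metabolism 3 rose and 4 fell, and the median log2 fold change was -0.13. Over all genes tested, 6.38% were called higher and 2.47% lower. St3gal2, a sialyltransferase that completes brain gangliosides, fell in all 6 fits, with 121 to 131 CPM (median 124) in SS + RSD and 81.1 to 124 CPM (median 98.3) in SS + RSD + minocycline mice, at -0.34 ± 0.067 (adjusted p = 0.0079). Slc1a4, a transporter of serine, the amino acid from which sphingoid bases are built, was lower at -0.26 ± 0.065 (lost without mice 9615, 9616 or 5354, adjusted p = 0.058 to 0.097), as were Elovl4, which elongates very long fatty acids, at -0.24 ± 0.075 (lost without mice 5391, 5400, 9615, 9616, 9621 or 5354, adjusted p = 0.0523 to 0.144), and Smpd1, acid sphingomyelinase, at -0.34 ± 0.11 (lost without mice 5391, 5400, 9615, 9616 or 5354, adjusted p = 0.0887 to 0.256). Smpd4, a neutral sphingomyelinase of the nuclear envelope, rose in all 6 fits, with 36.6 to 58.7 CPM (median 47.5) against 40.1 to 128 CPM (median 98.8), at 0.92 ± 0.23 (adjusted p = 0.0165). The ceramide synthases Cers4 and Cers5 were at 0.64 ± 0.19 (lost without mice 9615, 9616 or 9621, adjusted p = 0.0538 to 0.0605) and 0.21 ± 0.066 (lost without mice 5400, 9615, 9621 or 5354, adjusted p = 0.0515 to 0.0921). Sphk1, which makes sphingosine 1-phosphate, was at -0.62 ± 0.24 (adjusted p = 0.0918). The control-series differences were -0.32, -0.21, -0.091 and -0.49 for the genes that fell, in the order given, and 1.07, 0.87 and 0.20 for those that rose. For Smpd4 and Cers4 the low-share values were 0.34 and 0.17 and the high-share values 1.17 and 0.85.

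Of 20 genes of homeostatic microglia 4 fell and none rose, beside 2.47% of all genes tested called lower. The list's median log2 fold change was -0.38, with -0.0089 in low-share mice, -0.56 in high-share mice and -0.47 between the control series. Csf1r, the receptor that microglia need to survive, had 118 to 159.6 CPM (median 128) in SS + RSD and 78.7 to 135 CPM (median 99.04) in SS + RSD + minocycline mice, at -0.40 ± 0.10 (adjusted p = 0.0188, lost without mice 5391, 9615 or 9621, adjusted p = 0.0509 to 0.056). Laptm5, a lysosomal protein of leukocytes, was at -0.41 ± 0.12 (lost without mice 5391, 9615, 9616 or 9621, adjusted p = 0.0593 to 0.105), Tmem119 at -0.50 ± 0.14 (lost without mice 5391, 9615, 9616 or 5354, adjusted p = 0.0543 to 0.093) and Olfml3 at -0.48 ± 0.16 (lost without mice 5391, 9615, 9616, 9621 or 5354, adjusted p = 0.085 to 0.157). In bulk tissue, fewer microglia and less RNA per microglial cell cannot be told apart. Of 22 tested genes of microglial activation and cytokine signalling, 1 fell, Ptgs2, and of 13 markers of peripheral leukocytes none was called.

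The genes of largest decrease included those of MHC class II antigen presentation. H2-Aa, H2-Ab1 and H2-Eb1 encode class II chains and Cd74 the invariant chain, and each fell, at -1.82 ± 0.41, -1.59 ± 0.37, -1.76 ± 0.37 and -1.56 ± 0.37 on the log2 scale (adjusted p = 0.0109, 0.0119, 0.00937 and 0.0121). A single SS + RSD mouse, 9615, stood far above the other mice of its group. It had 34.03 CPM of H2-Aa where the other 5 had 3.98 to 7.04, and 61.3 CPM of Cd74 where the others had 7.001 to 15.2. SS + RSD + minocycline mice had 0.808 to 6.93 CPM of H2-Aa (median 2.39) and 1.91 to 12.6 CPM of Cd74 (median 5.23). Without mouse 9615 the log2 fold changes were -0.85, -0.88, -0.95 and -0.60 in the order given, and none was called (adjusted p = 0.165, 0.139, 0.0904 and 0.284). The control-series differences were -1.15, -0.97, -0.55 and -0.73. These 4 were the only calls among 13 antigen presentation genes. Of 19 interferon-stimulated genes 2 rose, Irf9 and Stat2, which encode partners in the transcription factor that acts after type I interferon. Irf9 had 6.27 to 8.81 CPM (median 7.85) against 7.47 to 18.2 CPM (median 12.2), at 0.57 ± 0.15 (adjusted p = 0.0213, called in all 6 fits), and Stat2 was at 0.44 ± 0.14 (adjusted p = 0.0393, lost without mice 9615, 9616 or 9621, adjusted p = 0.0666 to 0.0886). The list median was 0.095, at 0.51 in low-share and -0.29 in high-share mice.

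**Figure D3:**
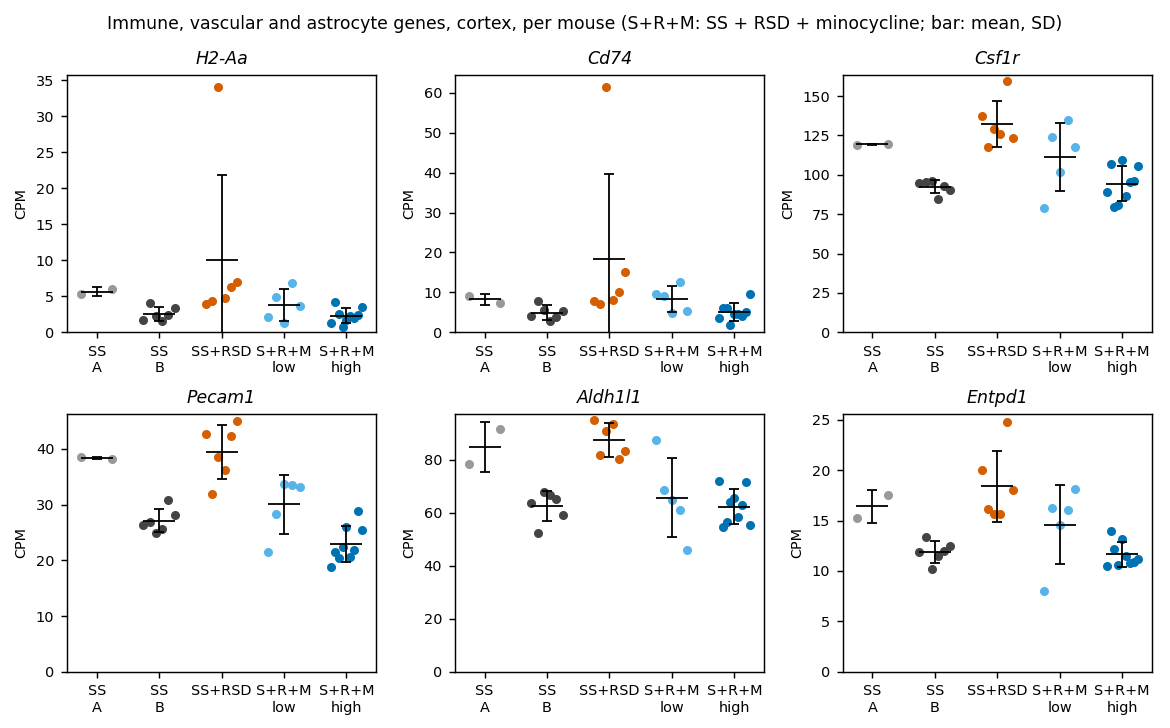
CPM of 6 immune, vascular and astrocyte genes in each cortex library, by group, with black bars for the mean and SD (S+R+M are SS + RSD + minocycline mice). For H2-Aa and Cd74 a single SS + RSD point, mouse 9615, lies at 34.03 and 61.3 CPM. For Pecam1, Aldh1l1 and Entpd1 the series B control mice lie below those of series A.

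Of 24 genes of brain endothelium, the barrier and mural cells, 5 fell and none rose (median -0.28), beside 2.47% of all genes tested called lower. Pecam1, an adhesion molecule of endothelial junctions, had 31.9 to 45.002 CPM (median 40.5) in SS + RSD and 18.7 to 33.7 CPM (median 23.9) in SS + RSD + minocycline mice, at -0.63 ± 0.13 (adjusted p = 0.00795). Tek, the angiopoietin receptor, was at -0.59 ± 0.15 (adjusted p = 0.015) and Cdh5, VE-cadherin, at -0.50 ± 0.13 (adjusted p = 0.0166), and these 3 genes were called in all 6 fits. Without mice 5391, 9621 and 7076 the calls of Tek and Cdh5 were lost (adjusted p = 0.0618 and 0.0779). Acta2, smooth muscle actin, was at -1.03 ± 0.30 (lost without mice 5391, 9616, 9621 or 5354, adjusted p = 0.0562 to 0.125) and Lsr, of tricellular junctions, at -0.42 ± 0.14 (lost without mice 5391, 5400, 9615, 9616, 9621 or 5354, adjusted p = 0.0571 to 0.194). Low-share and high-share values were -0.39 and -0.79 for Pecam1, -0.40 and -0.71 for Tek, -0.42 and -0.55 for Cdh5 and -0.41 and -1.54 for Acta2, and the control-series differences were -0.50, -0.27, -0.20 and -1.08.

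Of 20 astrocyte genes 4 fell and none rose (median -0.31), beside 2.47% of all genes tested called lower. Aldh1l1, a folate enzyme used as a marker of astrocytes, had 80.3 to 95.001 CPM (median 87.03) against 46.1 to 87.6 CPM (median 63.5), at -0.46 ± 0.10 (adjusted p = 0.0109, called in all 6 fits), with -0.41 in low-share mice and a control-series difference of -0.44. The others were Fbln5, an extracellular matrix protein, at -0.71 ± 0.19 (lost without mice 9621 or 5354, adjusted p = 0.0538 to 0.0731), Gja1, the gap junction protein connexin 43, at -0.40 ± 0.12 (lost without mice 5391, 9615, 9616 or 9621, adjusted p = 0.0621 to 0.125), and Aldoc, a glycolytic enzyme, at -0.40 ± 0.13 (lost without mice 5391, 5400, 9615, 9616, 9621 or 5354, adjusted p = 0.0514 to 0.194). Of 13 metalloproteinases and inhibitors 1 fell, Timp4, at -0.64 ± 0.16 (lost without mice 9615 or 9616, adjusted p = 0.0563 to 0.0743), and of 9 meningeal genes 1 fell, the collagen gene Col1a2, at -0.70 ± 0.22 (lost without mice 5391, 5400, 9615, 9616, 9621 or 5354, adjusted p = 0.0532 to 0.136). Hspb1, a small heat shock protein found in vessels and reactive glia, was among the 8 lower genes of largest change. It had 3.60 to 6.11 CPM (median 5.50) against 1.45 to 3.74 CPM (median 2.27), at -1.08 ± 0.20 (adjusted p = 0.00694), with -0.75 in low-share mice, a control-series difference of -0.15 and -0.89 ± 0.42 with number series as a term. None of 18 myelin and oligodendrocyte genes, 18 glucocorticoid and stress-hormone genes, 17 circadian clock genes or 15 cortical layer and neuron markers was called.

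Several of the genes that rose most encode noncoding RNAs. Among called genes with a symbol that is not a model name and a mean log2 CPM of at least 1, the 8 of largest log2 fold change were Muc3a, a membrane mucin, at 2.78, the collagen gene Col7a1 at 2.37, the microRNA gene Mir5125 at 2.15, Miat at 1.99, the collagen gene Col24a1 at 1.95, Meg3 at 1.94, the metalloproteinase gene Adam33 at 1.92 and Zfhx2os at 1.92 (adjusted p = 0.0077 to 0.022). All 8 were called in all 6 fits. Meg3 and Miat are long noncoding RNAs kept in the nucleus of neurons. Meg3 had 785 to 2091 CPM (median 1343) in SS + RSD mice, 981 to 3169 CPM in low-share and 5176 to 8301 CPM in high-share SS + RSD + minocycline mice, so that the high-share mice did not overlap either group. Control mice had 953 and 2052 CPM in series A and 5838 to 7219 CPM in series B. The share of all genes tested for which high-share mice overlapped neither SS + RSD nor low-share mice was not counted. Of 22 RNAs that are retained in the nucleus or tied to splicing 14 rose and none fell (median 0.55, against -0.05 over all genes), among them Snhg11 at 1.91 ± 0.41, Mirg at 1.40 ± 0.31, the splicing kinases Clk1 and Clk4 at 0.62 ± 0.15 and 0.65 ± 0.14, and the splicing factor Luc7l3 at 0.63 ± 0.12. The list's median was 0.37 in low-share mice, 0.62 in high-share mice and 0.67 between the control series. For Luc7l3 and Clk1 the low-share and high-share values lay close together, at 0.60 and 0.65 and at 0.63 and 0.62, while those of Meg3 were 0.73 and 2.34 and those of Muc3a 0.53 and 3.31.

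**Figure D4:**
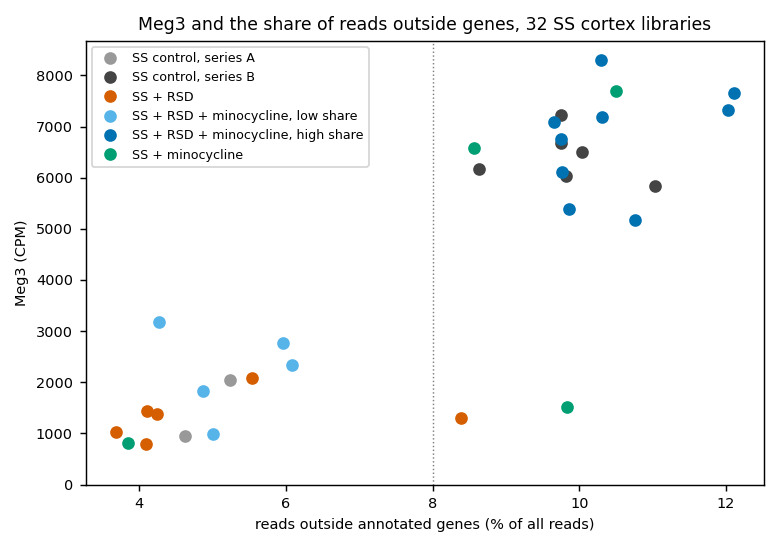
Meg3 (CPM) against the share of all reads outside annotated genes in the 32 SS cortex libraries used, coloured by group, with the dotted line at 8%. The 9 high-share SS + RSD + minocycline mice lie among the series B control mice at 5176 CPM or more, and the 5 low-share mice at 981 to 3169 CPM lie nearer to the SS + RSD mice. Above the 8% line, SS + RSD mouse 5354 (8.39%, 1302 CPM) and SS + minocycline mouse 9888 (9.84%, 1509.5 CPM) have low Meg3.

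Of 13 mitochondrially encoded genes 2 fell. The complex I gene mt-Nd4l was at -2.91 ± 0.64 (adjusted p = 0.0106) and the ATP synthase gene mt-Atp8 at -3.22 ± 1.01 (adjusted p = 0.0423). The mt-Nd4l call held in all 6 fits, and that of mt-Atp8 was lost without mice 5391, 9615, 9616 or 9621, adjusted p = 0.0506 to 0.163. Mice 5391 and 9621 had 45.8 and 50.1 CPM of mt-Nd4l, whereas the other 4 SS + RSD mice had 0.771 to 2.21 CPM. In SS + RSD + minocycline mice mt-Nd4l was at 0.327 to 9.26 CPM, highest in mouse 7076. These 3 libraries also had the largest shares of unmapped reads of the 20, at 25.4%, 24.1% and 36.2%. Without them the log2 fold changes were 0.12 and 1.71, and neither gene was called (adjusted p = 0.889 and 0.226). Of 36 nuclear complex I genes and 80 genes of the mitochondrial ribosome none was called, and of 81 cytosolic ribosomal proteins, whose near-identical pseudogene copies make their counts uncertain, 1 rose, Rps10 at 0.54 ± 0.17 (lost without mice 5400, 9615, 9616, 9621 or 5354, adjusted p = 0.0588 to 0.115). The medians of these 3 lists were -0.28, -0.22 and -0.39, with 0.18, 0.099 and 0.11 in low-share mice and -0.64, -0.44 and -0.80 in high-share mice, so that their sign depended on which mice were taken. Of 20 genes of the integrated stress response 2 fell, the serine synthesis enzymes Psat1 at -0.36 ± 0.11 (lost without mice 5391, 5400, 9615, 9616 or 5354, adjusted p = 0.0853 to 0.145) and Phgdh at -0.49 ± 0.16 (lost without mice 5391, 5400, 9615, 9616, 9621 or 5354, adjusted p = 0.0539 to 0.204).

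Of 9 genes of red cells and reticulocytes 2 fell, the membrane proteins Slc4a1 at -1.11 ± 0.35 (lost without mice 5391, 9615, 9616, 9621 or 5354, adjusted p = 0.0635 to 0.114) and Epb42 at -1.14 ± 0.36 (lost without mice 5391, 5400, 9615, 9616, 9621 or 5354, adjusted p = 0.0535 to 0.124), and the median was -0.83. Alas2 had 104 to 162 CPM (median 133) in SS + RSD mice and 6.33 to 130.4 CPM (median 71.1) in SS + RSD + minocycline mice, at -0.80 ± 0.29 (adjusted p = 0.0763), and without mouse 7078 it was called, at -0.70 (adjusted p = 0.0331). The summed level of the list was 164 to 225 CPM in SS + RSD and 54.8 to 191 CPM in SS + RSD + minocycline mice, with the low end in mouse 7078. None of 8 choroid plexus genes or 10 striatal genes was called. The list medians of blood, endothelial and microglial genes were all below 0, and the part of blood left in the vessels in the other decreases was not tested.

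**Figure D5:**
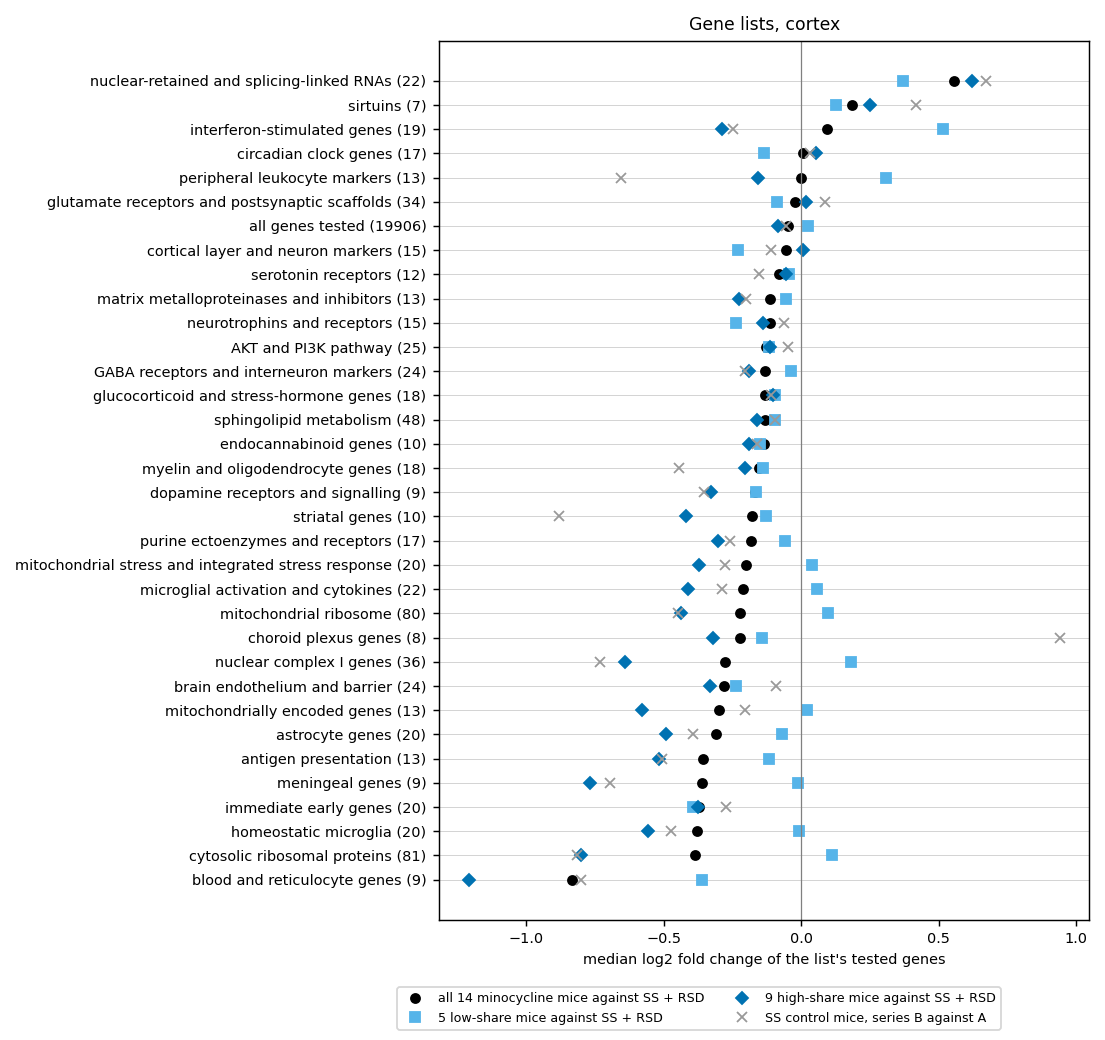
Median log2 fold change of each gene list in the cortex, with the number of its tested genes in parentheses, for all 14 SS + RSD + minocycline mice, the 5 low-share mice and the 9 high-share mice, each against SS + RSD mice, and for the control series B against A. The medians of high-share mice lie near those of the control series for cytosolic ribosomal proteins (-0.80 and -0.82). Immediate early genes are at -0.39 in low-share mice, -0.38 in high-share mice and -0.27 between the control series.

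In the hippocampus of the same 20 mice, 1234 of 20701 genes (5.96%) were called between these groups, 1010 higher and 224 lower, and 0 with number series as a term (2898 at an unadjusted p under 0.05, and 832 called by DESeq2). This count moved with the SS + RSD mouse left out. It was 2 without mouse 5354, 7 without mouse 5391, 16 without mouse 9615, 129 without mouse 9616, 430 without mouse 9621 and 1321 without mouse 5400. Genes at an unadjusted p under 0.05 moved less, from 5539 with all mice to 4431 to 5537 in these fits. Bdnf was not called there, at -0.13 (adjusted p = 0.611). It had 37.7 to 50.04 CPM in SS + RSD and 28.7 to 74.7 CPM in SS + RSD + minocycline mice. The SS + RSD mean of 43.9 CPM lay between those of low-share and high-share mice. Low-share mice had a mean of 50.7 CPM (28.7 to 74.7) and high-share mice 34.2 CPM (29.8 to 39.2). Control mice had means of 40.8 CPM in series A and 35.4 CPM in series B. Hippocampal Bdnf was not tested by share or between the control series. Taking the cortex minus the hippocampus within each mouse, the Bdnf difference between the groups was 0.65 lower in the cortex on the log2 scale (exact two-sided permutation test over mice, p = 0.000232, adjusted over 82 named genes p = 0.019). No other named gene passed this test after adjustment. Their values ran from -0.69 for Egr3 to 0.49 for Zfhx2os. Htr5b was at -0.69, Nptx2 at -0.56 and Homer1 at -0.53, so that the size of the difference was not particular to Bdnf. The named genes were chosen in part by their cortex results. The part of number series and of the share of reads outside genes in the tissue difference of Bdnf was not tested. Egr3, Fosb, Homer1 and Nptx2 were at -0.25, -0.43, -0.31 and -0.40 in the hippocampus (adjusted p = 0.051, 0.026, 0.105 and 0.129). Meg3, Sirt4, Pecam1, Csf1r and Aldh1l1 were at 2.08, 0.96, -0.51, -0.44 and -0.40 (adjusted p = 0.0289, 0.036, 0.0488, 0.0393 and 0.0237), beside 1.94, 1.06, -0.63, -0.40 and -0.46 in the cortex.

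Without the 3 libraries highest in striatal markers, 27 named genes lost the call (adjusted p = 0.0524 to 0.191). They were Sorcs3, Dlg4, Gabbr1, Akt2, Sirt6, Elovl4, Smpd1, Cers4, Cers5, Csf1r, Laptm5, Tmem119, Olfml3, Stat2, Fbln5, Gja1, Aldoc, Acta2, Lsr, Psat1, Phgdh, Slc4a1, Epb42, mt-Nd4l, mt-Atp8, Rps10 and Col1a2. Adora1, Abhd6 and Sphk1 were called there, at -0.36, -0.38 and -0.83 (adjusted p = 0.0382, 0.042 and 0.0426). Without mice 5391, 9621 and 7076, 28 named genes lost the call with their direction kept (adjusted p = 0.0593 to 0.384): Sorcs3, Homer1, Ptgs2, Dlg4, Gabbr1, Maob, Entpd1, Akt2, Sirt6, Elovl4, Cers5, Csf1r, Laptm5, Tmem119, Olfml3, Fbln5, Gja1, Aldoc, Tek, Cdh5, Acta2, Lsr, Psat1, Phgdh, Slc4a1, Epb42, Rps10 and Col1a2. Abhd6 and Sirt3 were called there, at -0.46 and -0.41 (adjusted p = 0.0338 and 0.0369). Without mouse 7078, 10 named genes lost the call, at adjusted p values of 0.0516 to 0.0664: Sorcs3, Sirt6, Smpd1, Olfml3, Stat2, Aldoc, Lsr, Psat1, Phgdh and mt-Atp8.

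The strand setting of the counting is not given in the sources used here, so reads of a gene and of a gene on the other strand may not be told apart. The share of exonic bases that overlap such a gene was 57.4% for Adora1, 51.97% for Akt1, 38.2% for Lsr, 32.6% for Miat, 30.6% for Zfhx2os, 19.9% for Csf1r, 18.02% for Sirt1, 14.8% for Timp4, 13.8% for Alas2, 13.5% for Bdnf and 10.6% or less for the other genes named.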

How the data were processed

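Bulk RNA-seq gene counts of cortex and hippocampus were analysed as deposited. The authors aligned reads with STAR to GRCm39 and counted them per gene with a GENCODE annotation. The deposited values are raw counts, and the strand setting is not given in the sources used here. Lines for unmapped, multimapping, ambiguous and no-feature reads were left out of library sizes and tests, and the no-feature line over all reads gave the share outside annotated genes. In cortex 1 column and in hippocampus 2 columns matched no sample and were not used. An SS + minocycline library with counts identical to a library of another group was left out. Of 55416 gene IDs 54749 matched GENCODE M39, which gave positions and promoters.

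All SS libraries of a tissue entered 1 model (edgeR 4.0.16 in R 4.3.3, TMM factors, genes filtered by group with a minimum count of 10, quasi-likelihood test, Benjamini-Hochberg adjustment over all genes tested, called under 0.05). Cortex depth was 20037825 to 107713193 reads on genes in the 20 libraries compared, and it limits genes of low counts most. Log2 fold changes are given with standard errors, and log CPM used a prior count of 2. The procedure was run on simulated counts with known changes. These held no differences between series or in the share of reads outside genes, so the simulation cannot bear on either. Alternatives were DESeq2 1.42.0, other size factors, no filter, a likelihood-ratio test, covariates, and libraries left out. Division by share and the fits without libraries of high unmapped share or high striatal markers were chosen after seeing the data. The members and lists were chosen with earlier results of these data known. Named genes were those the study names, the 8 higher and 8 lower called genes of largest change (mean log2 CPM 1 or more), up to 3 of smallest p per list, and members with a role described. Groups came from the labels. Some items are not reported here.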

Additional observations from a re-analysis of the deposited data

Results flagged for a closer look

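In the cortex, 13 of 84 values tested among the 6 SS + RSD mice had 1 mouse far from the other 5 (Dixon's criterion, gap over range above 0.625), where chance marks about 1 in 20 groups. Mouse 9621 accounted for 9 of them. It was the lowest mouse for Adora1 (189.8 CPM, next 296), Akt1 (167 CPM), Sirt2 (123 CPM), Sirt6 (11.5 CPM) and Sirt7 (20.9 CPM), and the highest for Htr4 (5.24 CPM, next 2.46), Laptm5 (45.4 CPM), Slc4a1 (28.2 CPM) and Epb42 (2.99 CPM). This library held the most striatal marker RNA of the SS + RSD mice.

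Mouse 9615 was the highest mouse for H2-Aa (34.03 CPM), H2-Ab1 (19.5 CPM), H2-Eb1 (25.5 CPM) and Cd74 (61.3 CPM).

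For Bdnf, the difference between SS + RSD + minocycline and SS + RSD mice differed between cortex and hippocampus by -0.65 on the log2 scale (exact two-sided permutation test over mice, p = 0.000232, adjusted over 82 genes p = 0.019). The groups belong to different number series in both tissues. In the hippocampus the mean of Bdnf was 50.7 CPM in low-share and 34.2 CPM in high-share SS + RSD + minocycline mice.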

How the results depend on the processing

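The cortex count of 1762 genes was 1878 with RLE size factors, 2166 by the likelihood-ratio test, 1920 in the 2 groups alone, 1634 with the identical library kept and 1691 without mice 5391, 9621 and 7076. It was 2705 by DESeq2, 1147 without a filter, 3271 with series B alone, 1038 without the 3 libraries highest in striatal markers, 4 with the share of reads outside genes as a term (65 named genes then lost the call), 0 with number series as a term (0 also by DESeq2), 7314 in high-share and 0 in low-share mice (180 by DESeq2, and 0 without mouse 5354 or 7076), and 863 to 1444 when an SS + RSD mouse was left out. The control-series count of 0 was 1060 by DESeq2. The hippocampus count of 1234 was 2298 by DESeq2, 263 without a filter, 0 with number series as a term, and 2 to 1321 when an SS + RSD mouse was left out. The share difference of 3.61 percentage points was 3.88 in series B (exact permutation p = 0.00684).

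With number series as a term 36 of 82 named genes changed sign, at log2 values of Arc 0.66, Fos 0.20, Npas4 -0.27, Dlg4 0.0061, Maob 0.15, Akt1 0.056, Sirt1 -0.34, Sirt2 0.24, Sirt3 0.16, Sirt4 -0.21, Sirt6 -0.0401, Sirt7 -0.0077, Smpd1 0.15, Smpd4 -0.22, Cers4 -0.27, Cers5 -0.0043, Csf1r 0.016, Laptm5 0.073, Tmem119 0.016, Olfml3 0.22, Fbln5 0.059, Aldoc 0.12, Acta2 0.11, Timp4 0.073, Psat1 0.22, Phgdh 0.20, Muc3a -1.17, Col7a1 -0.43, Miat -0.19, Col24a1 -0.31, Meg3 -0.24, Zfhx2os -0.13, Snhg11 -0.26, Luc7l3 -0.036, Mirg -0.16, Clk4 -0.069. Htr6 changed sign to 0.039 by DESeq2, 0.026 with RLE factors, 0.0074 by the likelihood-ratio test, 0.012 without a filter, 0.0098 in series B and 0.078 in high-share mice. Htr7 changed to -0.037 in high-share mice and -0.014 without mice 5391, 9621 and 7076. In low-share mice Npas4 was -0.41, Nr4a1 -0.096 and Sirt1 -0.021. Without mouse 5354 these were -0.32, -0.053 and -0.048, and without mouse 7076 Npas4 was -0.34, Nr4a1 -0.11 and Sirt6 -0.011. With the share as a term Npas4 was -0.29, Htr4 -0.0051 and Sirt1 -0.14. Without mice 5391, 9621 and 7076 Npas4 was -0.076 (-0.021 without mice 9621, 9813 and 9890), mt-Nd4l 0.12 and mt-Atp8 1.71. When an SS + RSD mouse was left out Arc ranged from -0.36 to 0.096, Npas4 from -0.085 to 0.22, Htr6 from -0.0523 to 0.082 and Htr7 from -0.0084 to 0.0938. The cause of these changes was not tested. With number series as a term, the values rest on the 2 series A control mice against the 6 of series B.

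No paired analysis was possible because the groups share no mouse and the labels give no replicate numbers in common. Cohort and treatment cannot be told apart, 6 SS + RSD mice and 2 series A control mice limit the precision, and low-share mice are few.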
